A study of Mus musculus with 18 samples.

Results

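The 70 genes described here are the replication-dependent histone genes of the mouse, taken as all genes of the count table whose symbol begins with Hist1h, Hist2h, Hist3h or Hist4h, out of 54232 genes in all. They comprise 6 genes of the linker histone H1, 20 of H2A, 19 of H2B, 12 of H3 and 13 of H4. The Hist1 cluster on chromosome 13 holds 55 of them, Hist1h2al lies on the same chromosome far from that cluster, the Hist2 cluster on chromosome 3 holds 10, the Hist3 cluster on chromosome 11 holds 3, and Hist4h4 on chromosome 6 is the remaining one. Of the 70, 67 are annotated as protein coding and 3 as pseudogenes (Hist1h2al, Hist1h2aj and Hist3h2bb-ps).

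RNA was measured in round spermatids (RS), the haploid cells left by meiosis before elongation starts, from WT, KO and KI mice of 75 to 85 days of age, and each genotype gave 6 libraries. In KO mice GRTH, the testis RNA helicase made from Ddx25, is absent. KI mice carry a human GRTH gene with a missense mutation and lack the phosphorylated form of the protein. RS were obtained by digesting testes with collagenase and trypsin and sedimenting the cells through a BSA gradient, with purity judged by DAPI staining, and total RNA was sequenced without polyA selection. Nothing in the labels says that the libraries of a genotype come from separate mice, so the p-values measure the spread between these libraries, which may be technical in part. As the samples are bulk RNA, a change in the number of cells of one type and a change in the RNA per cell cannot be told apart.

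Replication-dependent histone genes supply most of the histone that is packed onto new DNA, and in dividing cells their mRNAs rise in S phase and are degraded when DNA synthesis ends. Most of these mRNAs have no poly(A) tail and end instead in a short stem-loop, which is bound by the stem-loop binding protein SLBP and serves in 3′ end formation, translation and decay. The testis has members of its own, the linker histone H1t (Hist1h1t), the H2B variant TH2B (Hist1h2ba) and the H2A variant TH2A (Hist1h2aa), which join the chromatin of germ cells before protamines replace the histones in elongating spermatids.

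The stem-loop was found in the GENCODE transcript models of 46 of the 70 genes, as a stem of 6 bases on each side of a loop of 4 bases. The sequences below belong to genes that changed between genotypes or stood highest in their class. The capitals mark the stem, and the bases around it are given as in the transcript.
Hist1h1t: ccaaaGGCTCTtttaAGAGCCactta
Hist1h1c: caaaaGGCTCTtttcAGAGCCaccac
Hist1h2bp: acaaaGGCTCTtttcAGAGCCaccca
Hist2h2aa2: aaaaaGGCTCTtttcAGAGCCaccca
Hist2h2ac: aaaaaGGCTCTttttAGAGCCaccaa
Hist1h3a: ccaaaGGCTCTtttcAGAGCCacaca
Hist1h4c: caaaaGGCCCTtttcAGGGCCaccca
Hist1h4b: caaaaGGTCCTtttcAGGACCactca
The form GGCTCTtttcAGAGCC was shared by 26 genes of the H1, H2A, H2B and H3 classes, and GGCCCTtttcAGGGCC by 7 genes, all of the H4 class. The form in Hist1h1t, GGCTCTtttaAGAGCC, was found in 6 genes. Its stem-loop begins 29 bases after the stop codon, and that of Hist1h1c 24 bases after it. For 16 genes, among them Hist1h2ba, Hist1h2aa, Hist1h2ak, Hist1h2ai and Hist1h4k, the annotated model ends at the stop codon or has none, so it holds no sequence in which a stem-loop could be looked for. In 8 further genes, Hist1h1a among them, the model runs past the stop codon and no match was found. The polyadenylation signal AATAAA was found within 40 bases of the end of a model in 14 genes, among them Hist1h1t, Hist1h1c and Hist1h2bp. Hist1h2bp has 1 transcript of 469 bases with the stem-loop and 1 of 621 bases in 2 exons with AATAAA near its end, and the counts of the gene do not separate them.

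The counts per library summed to between 20606738 and 26776555 in WT, between 18766971 and 25654453 in KO and between 19996042 and 24915182 in KI. Ddx25, the targeted gene, was at 567 ± 24.7 normalized CPM (the counts on a gene relative to the size of its library, SD, n = 6) in WT libraries. It was at 70.04 ± 14.8 in those of KO and at 9.74 ± 23.1 in those labelled KI. The library labelled KI 4 had 56.9 CPM of Ddx25, within the KO range of 47.7 to 90.9, while the other 5 KI libraries lay between 0.0456 and 0.519. This library goes against its label, and results for KI are therefore given with and without it. Its counts lay closest to those of KO 2, with a spread of 1.59 times that of counting error alone, closer than any other pair of libraries. Next came KO 4 with KO 5, WT 1 with WT 2, KI 1 with KI 2, KI 3 with KI 5, WT 3 with WT 4, and WT 5 with WT 6, at 2.07 to 3.02, and the next pair was at 4.64. No pair differed by less than counting error, so all libraries were counted separately, and counts of genes are also given with these pairs summed.

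In the counts, the members were a small share and were dominated by a few genes. Their counts made up 0.0407% ± 0.00843 (SD, n = 6) of the WT libraries, 0.0780% ± 0.0215 of the KO libraries and 0.0618% ± 0.0247 of the KI libraries. Summed over the 70 genes, WT libraries had 434 ± 91.6 CPM (337 to 538), KO libraries 763 ± 207 (526 to 1059) and KI libraries 602 ± 263 (366 to 1066). The highest KI value was that of the library labelled KI 4, and without it KI reached at most 717. The 3 testis members together had means of 176 ± 46.5 CPM (WT), 416 ± 108 (KO) and 331 ± 145 (KI), and their lowest KO library, at 309, stood above their highest WT library, at 237. The remaining 67 genes had means of 258 ± 53.4 CPM (WT), 347 ± 104 (KO) and 271 ± 123 (KI), and their ranges overlapped. These sums are descriptions without a test.

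**Figure D1:**
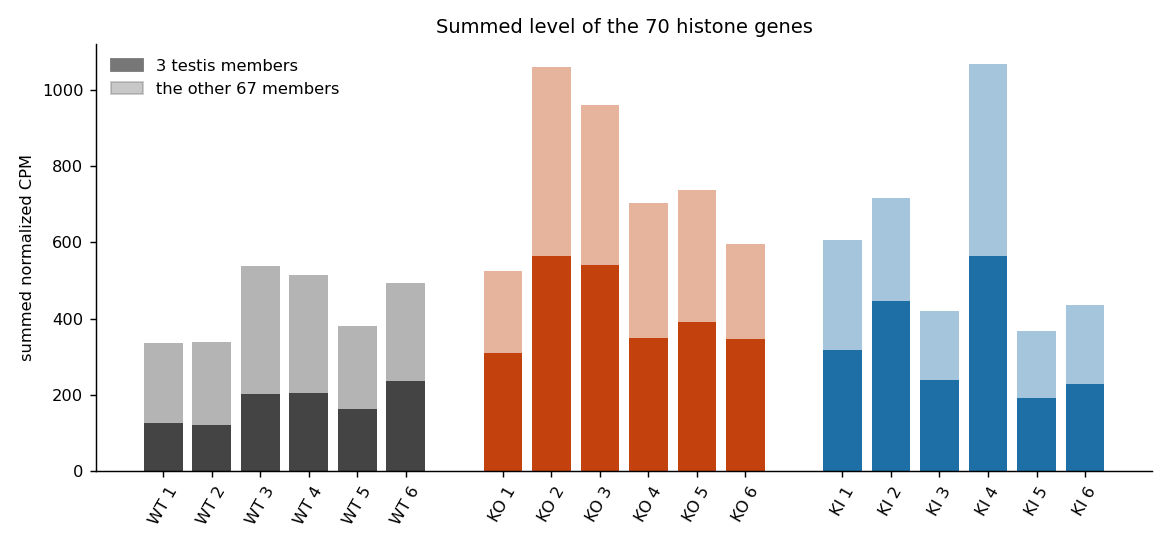
Summed level of the 70 histone genes in each library, in normalized CPM, with the 3 testis members in full colour and the other 67 members in pale colour (WT grey, KO orange, KI blue). The testis members of every KO library, from 309 to 563 CPM, stood above those of every WT library, from 121 to 237, while the other 67 genes overlapped between the genotypes.

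Per kilobase of exon, Hist1h1t was the highest member, at 220.3 CPM per kilobase over all 18 libraries, followed by Hist1h2ba at 204, Hist1h1a at 78.8, Hist1h2aa at 73.4, Hist1h2bp at 45.6, Hist1h2ak at 24.8, Hist1h4k at 24.2 and Hist1h2ai at 19.9. This order pools the genotypes and depends on them. In WT alone Hist1h2ba was highest, at 132 CPM per kilobase, followed by Hist1h1t at 113, Hist1h1a at 60.3, Hist1h2bp at 59.0 and Hist1h2aa at 56.2, while Hist1h1t led in KO, at 302 beside 270.4 for Hist1h2ba, and in KI, at 246 beside 208. These orders were not tested. They and the highest gene of a class can also depend on how much of each gene could be counted and on model length. Hist1h1t and Hist1h1a share no stretch of 50 bases with another gene, while Hist1h2ai shares 90.1% of its stretches and Hist1h4k 71.5%. Fragments that fit several genes were not counted. The models of Hist1h2ba, Hist1h2aa, Hist1h2ak, Hist1h4k and Hist1h2ai end at the stop codon, while that of Hist1h1d has 7425 bases. Hist1h1a encodes the linker histone H1.1, and Hist1h2bp, Hist1h2ak, Hist1h4k and Hist1h2ai encode core histones. The highest H3 gene, Hist1h3a, was at 6.14 CPM per kilobase. Hist1h1t alone took 23.4% ± 5.24 of the members' counts in WT libraries, but 36.4% ± 3.39 in those of KO and 36.9% ± 4.74 in those of KI (SD, n = 6). At the other end, 4 genes (Hist1h2ao, Hist1h2bq, Hist1h2br and Hist2h3c1) had 3 or fewer counts in every library, which is between 0.112 and 0.160 CPM, and Hist2h3c1 was listed at 0 throughout. All 1825 exon bases of Hist2h3c1 overlap Gm20634 on the same strand, so its fragments could not be assigned to it and the 0 says nothing of its level. The filter on low counts left 52 of the 70 members to be tested among 21058 genes, and 49 of the 52 had more than 3 counts in every library.

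RS of KO mice had more RNA of the testis histones than RS of WT mice. Hist1h1t was 2.67-fold and Hist1h2ba 2.04-fold higher, and the linker histones Hist1h1a and Hist1h1c and several H4 genes also rose, although Hist1h1a, Hist1h1c, Hist1h4h and Hist1h4k were not called without KO 2 or with the close pairs described above summed. Of the 52 members tested, 15 rose and 3 fell in edgeR's quasi-likelihood test for a change of any amount at an adjusted p under 0.1. Over all genes tested, 16.4% rose and 13.5% fell, against 28.8% and 5.77% of the members. The median log2 fold change of the members was 0.60, beside 0.03 for all genes, and 46 of the 52 had a positive value (88.5%, beside 52.6% of all genes). Markers of spermatogonia had a median of 0.55 in the same comparison, and the 23 genes of S phase described below had one of 0.32. The part of either list in the change of the members was not tested.

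Hist1h1t lies at chr13:23695814-23696725 (GRCm38, + strand) in 1 exon. Its level was 60.6 CPM at the lowest, 106 at the median and 157 at the highest in WT, and 207, 250.2 and 371 in KO. Every KO library was above every WT library, with KO 2 and KO 3 highest and WT 1 and WT 2 lowest. The log2 fold change was 1.42 ± 0.27 (SE, edgeR adjusted p = 0.000508), the smallest adjusted p among the members. Its exons hold no stretch of 50 bases shared with another gene, so its counts do not depend on how reads of similar genes were assigned.

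Hist1h2ba, the gene of TH2B, lies at chr13:23933773-23934156 on the - strand, and Hist1h2aa, the gene of TH2A, lies 305 bases away at chr13:23934462-23934851 on the + strand, so that the pair starts from a common stretch of DNA in opposite directions. Hist1h2ba had 39.8, 50.9 and 61.7 CPM (lowest, median, highest) among WT libraries and 76.3, 92.9 and 142 among KO libraries, without overlap. Its log2 fold change was 1.03 ± 0.23 (edgeR adjusted p = 0.00197). Hist1h2aa had 15.9, 20.2 and 31.1 CPM among WT libraries and 23.8, 38.1 and 50.3 among KO libraries. Its ranges overlapped, with KO 1 and KO 6 inside the WT range, and its log2 fold change was 0.76 ± 0.22 (edgeR adjusted p = 0.0149). Among the 52 members tested in edgeR, Hist1h1t and Hist1h2ba were the only 2 (3.85%) whose KO libraries all lay above the WT libraries, beside 6.62% of all genes tested. Hist2h3b, described below, did not overlap either, but it did not pass the edgeR filter.

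Among the somatic linker histones, Hist1h1a was at 33.9, 41.7 and 63.5 CPM (lowest, median, highest) in WT and at 39.3, 78.4 and 122 in KO. The ranges overlapped, as KO 1 and KO 6 were within the WT range, and the log2 fold change was 0.79 ± 0.31 (edgeR adjusted p = 0.0672). Hist1h1c, which encodes H1.2, was at 21.1 ± 5.91 CPM in WT and 35.0 ± 13.3 in KO (SD, n = 6), with a log2 fold change of 0.73 ± 0.29 (edgeR adjusted p = 0.0674). Among the core histones tested in edgeR the largest rises were those of Hist1h2bg (H2B) and Hist1h4n (H4). Hist1h2bg had 0.422 ± 0.234 CPM in WT and 1.16 ± 0.634 in KO, and Hist1h4n had 2.02 ± 0.902 and 5.28 ± 1.89. Their log2 fold changes were 1.45 ± 0.43 and 1.39 ± 0.33 (edgeR adjusted p = 0.0165 and 0.00318). With the counts of Hist1h4m added, another H4 gene with much shared sequence, the rise of Hist1h4n was 1.52-fold in place of 2.63-fold. An exact permutation test of the added level gave p = 0.0649, and 0.195 after adjustment over the 3 comparisons. The library labelled KI 4 is not part of this comparison, and without it the exact permutation p stayed at 0.0649. The adjusted value was then 0.0973, under the threshold of 0.1, only because the p of KI against KO fell, as described with Hist1h4m. The other members that rose were Hist1h2ab, Hist1h2ak, Hist1h2bm, Hist1h4c, Hist1h4h, Hist1h4k, Hist2h2ac and Hist3h2bb-ps, with log2 fold changes from 0.53 to 0.95. Of the 7 H3 genes tested 0 were called in edgeR, and 0 had an unadjusted p under 0.05, while all 7 had a positive value, with a median of 0.59. With the library labelled KI 4 left out of the fit, 2 of the 7 were called higher in KO, beside 16.8% of all genes. These were Hist1h3b and Hist1h3c (edgeR adjusted p = 0.0935 and 0.0967). DESeq2, which gave a value to 11 H3 genes, called 1, Hist2h3b, higher in KO (adjusted p = 0.00998) and in KI (adjusted p = 0.0422). That gene had 0 or 1 counts in WT libraries, 2 to 5 in KO libraries and 0 to 5 in KI libraries, and did not pass the edgeR filter. The highest H3 gene, Hist1h3a, was at 3.29 ± 0.689 CPM in WT and 3.47 ± 0.912 in KO.

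**Figure D2:**
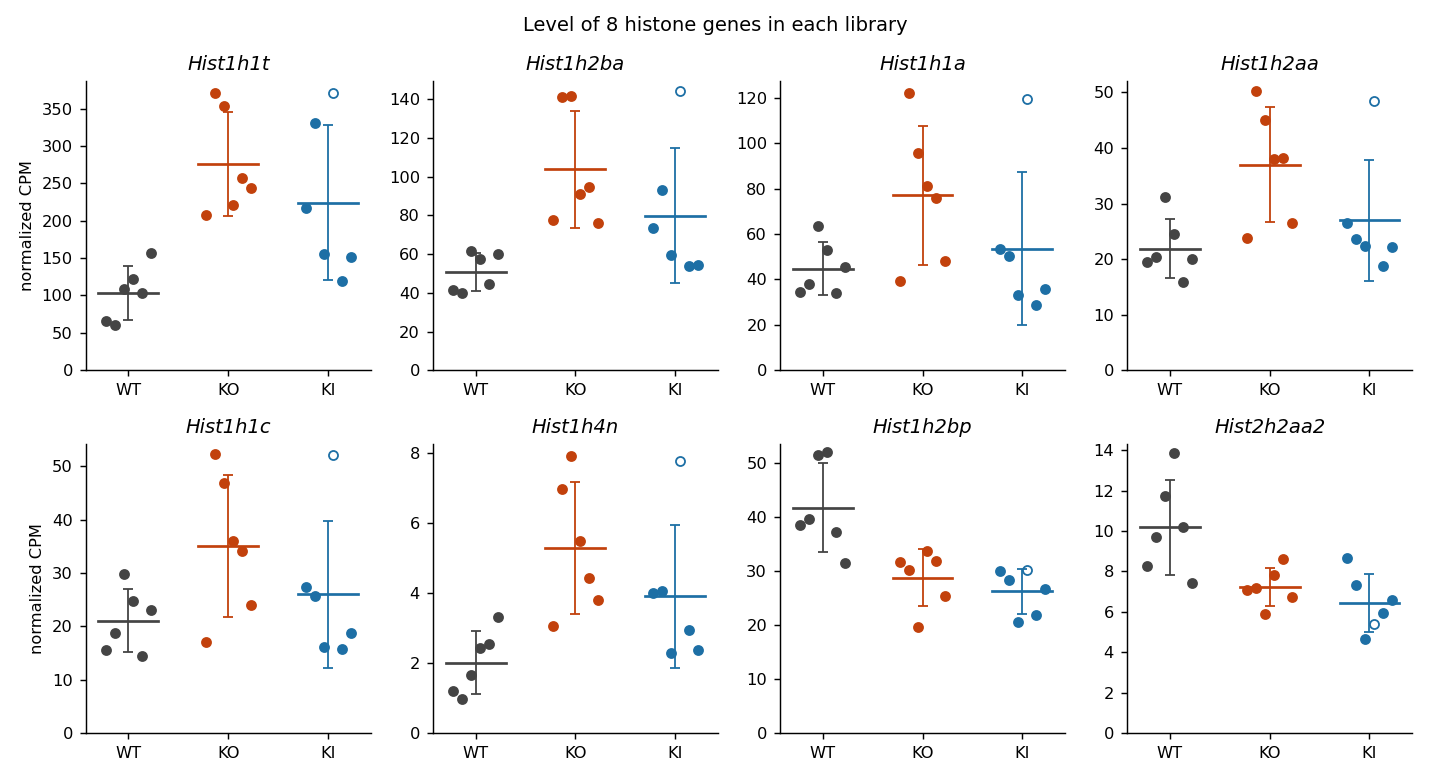
Level of 8 members in each library, in normalized CPM (WT grey, KO orange, KI blue), with the mean as a line and the SD as a bar (n = 6) and the library labelled KI 4 as an open point. Hist1h1t and Hist1h2ba of all KO libraries stand above those of all WT libraries, KO 2, KO 3 and the library labelled KI 4 are the high points of most rising genes, and Hist1h2bp and Hist2h2aa2 are lower in KO and KI.

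A small group fell. Hist1h2bp (H2B, chr13:21787461-21789213, + strand) was at 31.4, 39.0 and 51.9 CPM (lowest, median, highest) in WT, at 19.6, 30.9 and 33.7 in KO and at 20.5, 27.5 and 30.1 in KI. Its KI libraries all lay below its WT libraries, while 3 KO libraries exceeded the lowest WT value, that of WT 6. The log2 fold change was -0.53 ± 0.15 in KO and -0.67 ± 0.15 in KI (edgeR adjusted p = 0.0119 and 0.00212), and -0.71 ± 0.16 in KI without the library labelled KI 4. Hist2h2aa2 and Hist2h2aa1, a pair of H2A genes on chromosome 3, had log2 fold changes of -0.49 ± 0.16 and -0.72 ± 0.25 in KO (edgeR adjusted p = 0.0329 and 0.041) and -0.67 ± 0.17 and -0.63 ± 0.25 in KI (edgeR adjusted p = 0.00464 and 0.0705). Hist2h2aa2 had means of 10.2 ± 2.35 CPM (WT), 7.23 ± 0.929 (KO) and 6.42 ± 1.44 (KI), and Hist2h2aa1 had means of 1.22 ± 0.178, 0.735 ± 0.326 and 0.784 ± 0.156. All 50-base stretches of both genes are shared with another gene, and Hist2h2aa1 also overlaps Gm20634 over 529 bases, so the counts of each rest on the fragments that could be assigned and are uncertain. Hist1h2bp and Hist2h2aa1 were the 2 members whose KI libraries lay wholly below the WT libraries (3.85%, beside 7.91% of all genes).

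No member passed the test for a change past 1 log2 unit (edgeR's glmTreat) in KO or KI, and none had an unadjusted p under 0.05 in it, beside 0.598% of all genes higher and 1.13% lower in KO, and 0.522% and 1.43% in KI. DESeq2 also called 0 members past 1 log2 unit. The number of members called higher in KO rested on few libraries, and without some of them its share was near that of all genes. It was 7 of 52 without KO 2 (13.5%, beside 13.7% of all genes), 8 of 52 without KO 3 (15.4%, beside 15.7%), 8 of 53 without WT 1 (15.1%, beside 14%) and 8 of 53 without WT 2 (15.1%, beside 14.2%). Without KO 1 it was 26 of 53 (49.1%, beside 16.3%). It was 21 of 52 without the library labelled KI 4 (40.4%, beside 16.8%). With both KO 2 and the library labelled KI 4 left out, 13 of 52 rose (25.0%, beside 14.3%) and 3 fell (5.77%, beside 12.4%). With the close pairs summed and the library labelled KI 4 left out, 60 members were tested, of which 6 rose (10%, beside 7.94%) and 2 fell (3.33%, beside 7.62%), and Hist2h2aa1 was no longer called. The 6 that rose were Hist1h1t, Hist1h2aa, Hist1h2ba, Hist1h2bg, Hist1h4c and Hist1h4n, all among the 7 called without KO 2.

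**Figure D3:**
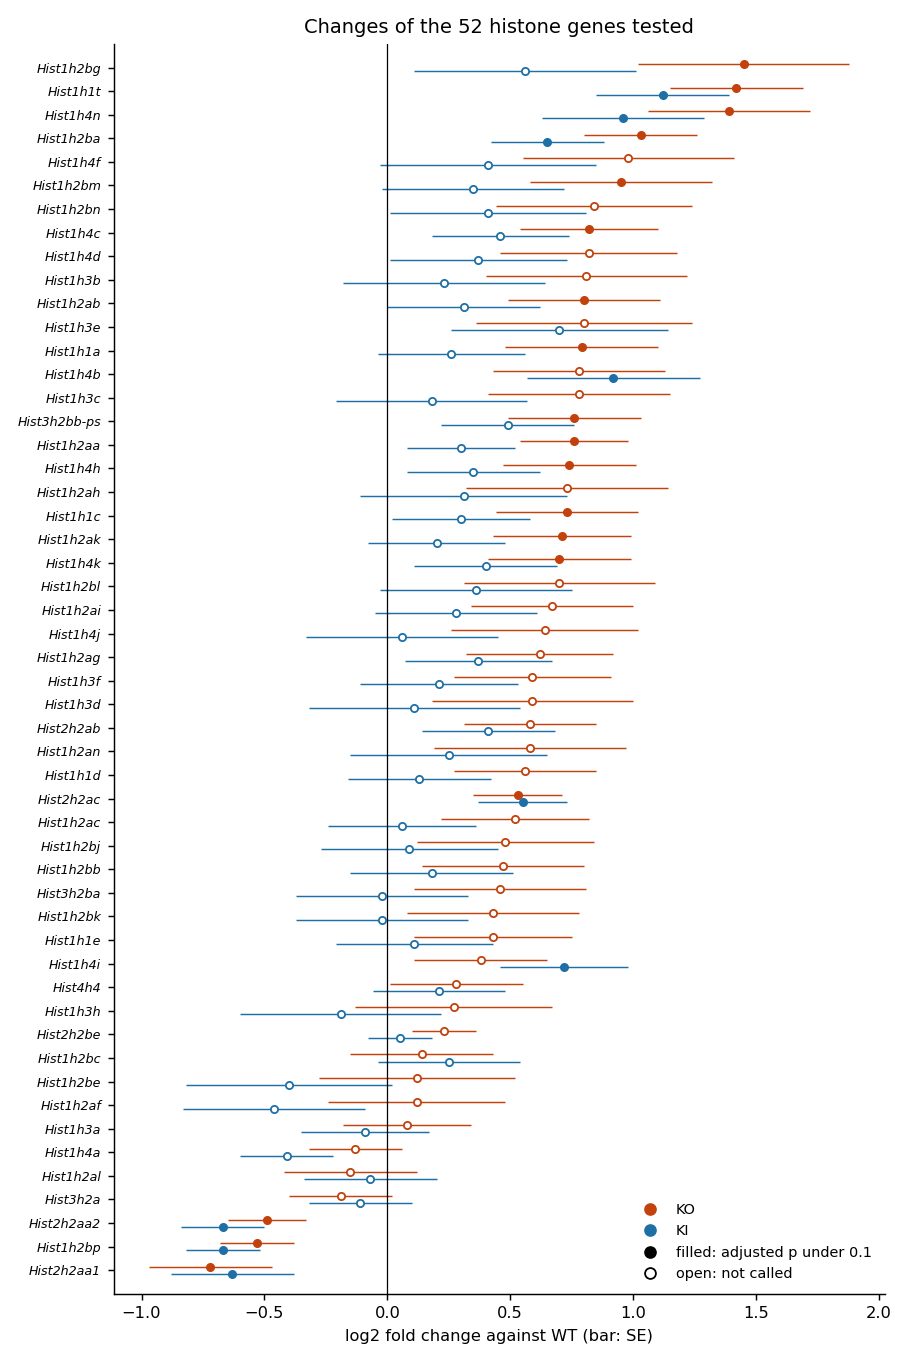
log2 fold change of the 52 members tested against WT, with its SE, in KO (orange) and KI (blue), filled where the edgeR adjusted p was under 0.1. In KO 46 of the 52 values are above 0, from -0.72 for Hist2h2aa1 to 1.45 for Hist1h2bg, and in KI 40 are.

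In RS of KI mice, Hist1h1t was called higher than in WT both with and without the library labelled KI 4. It was not called with the close pairs summed and that library left out. Of the 52 tested, 6 rose (11.5%) and 3 fell (5.77%) at an edgeR adjusted p under 0.1, beside 16.1% and 15.4% of all genes. The median log2 fold change of the members was 0.25, beside 0.05 for all genes. Without the library labelled KI 4 the median was -0.05, with 22 positive and 30 negative values, and 2 members rose and 6 fell, beside 14.5% and 15.8% of all genes. The 2 that rose without it were Hist1h1t and Hist2h2ac, and the 3 that fell in addition were Hist1h2af, Hist1h2be and Hist1h4a. With the close pairs summed and that library left out, 0 of 60 rose and 1, Hist1h2bp, fell, beside 5.32% and 6.87% of all genes.

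Hist1h1t in KI was at 120.0, 187 and 370.2 CPM (lowest, median, highest), with KI 1, KI 2 and the library labelled KI 4 above the highest WT library and KI 3, KI 5 and KI 6 within the WT range. The log2 fold change was 1.12 ± 0.27 (edgeR adjusted p = 0.00351), and 0.92 ± 0.26 without the library labelled KI 4 (edgeR adjusted p = 0.0124). Hist1h2ba was at 54.0, 66.7 and 144 CPM, overlapping the WT range, with a log2 fold change of 0.65 ± 0.23 (edgeR adjusted p = 0.0385), which was 0.40 ± 0.19 and not called without that library (edgeR adjusted p = 0.147). Hist1h2aa was not called in KI, with a log2 fold change of 0.30 ± 0.22, nor was Hist1h1a, with 0.26 ± 0.30 (edgeR adjusted p = 0.355 and 0.591). In the library labelled KI 4 alone, Hist1h2aa was at 48.6 CPM and Hist1h1a at 119.5 CPM, while the other 5 KI libraries had means of 22.7 ± 2.82 and 40.3 ± 10.9 (SD, n = 5). Hist2h2ac (H2A) had 4.01 ± 0.771 CPM in WT libraries and 5.88 ± 1.31 in KI libraries, with a log2 fold change of 0.55 ± 0.18 (edgeR adjusted p = 0.0288), and of 0.43 ± 0.17 without that library. In KO it was at 5.79 ± 1.41 CPM, with a log2 fold change of 0.53 ± 0.18. The H4 genes Hist1h4b and Hist1h4i had log2 fold changes of 0.92 ± 0.35 and 0.72 ± 0.26 in KI (edgeR adjusted p = 0.0569 and 0.0499), and without that library neither was called (edgeR adjusted p = 0.207 and 0.11).

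**Figure D4:**
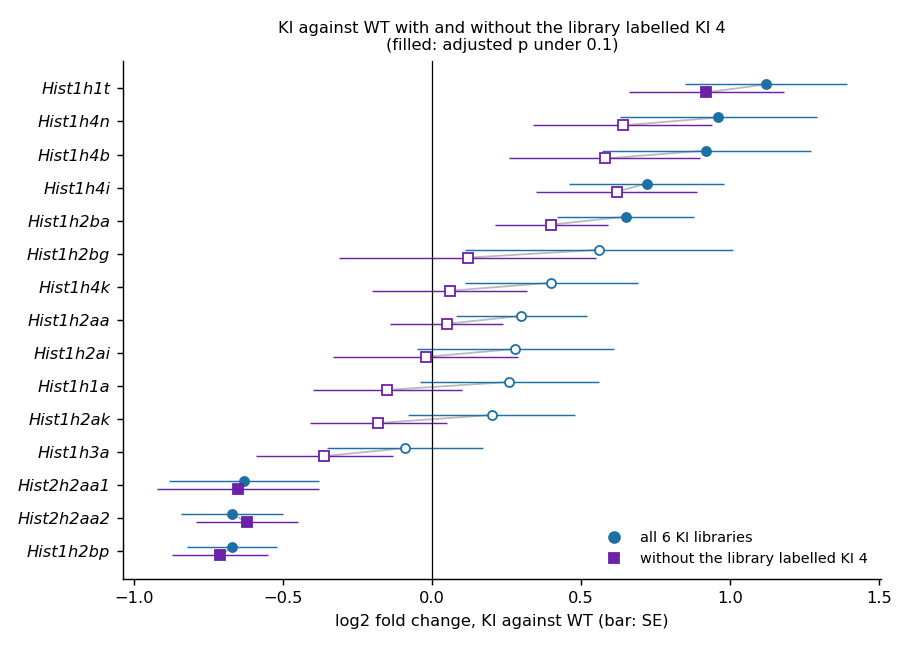
log2 fold change of 15 members in KI against WT with all 6 KI libraries (blue circles) and without the library labelled KI 4 (purple squares), with SE, filled where the edgeR adjusted p was under 0.1. Hist1h1t moves from 1.12 to 0.92 and stays filled, and Hist1h2ba moves from 0.65 to 0.40 and is not.

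KI and KO libraries were also set directly against each other, and no member was called. In edgeR 0 members were called higher in KI and 0 lower, beside 0.076% and 0.0237% of all genes, DESeq2 also called 0, and at an unadjusted p under 0.05 there were 0 higher and 2 lower (Hist1h2bg and Hist1h2aa, 3.85% of the members, beside 2.54% of all genes). Past 1 log2 unit 0 were called, and 0 had an unadjusted p under 0.05, beside 0.00475% of all genes higher. DESeq2 called 0 as well. Of the values themselves, 45 of the 52 members had a negative value, with a median log2 fold change of -0.38 beside -0.02 for all genes. For Hist1h1t the value was -0.30 ± 0.27 and for Hist1h2ba -0.38 ± 0.23. Without the library labelled KI 4 the median was -0.69, and 30 members (57.7%) were lower at an unadjusted p under 0.05, as were 6.32% of all genes, while 0 were called, beside 0.282% of all genes higher and 0.24% lower, the lowest edgeR adjusted p being 0.13. With KO 2 left out as well, 19 members (36.5%) were lower at an unadjusted p under 0.05, as were 4.16% of all genes, and the lowest edgeR adjusted p was 0.35.

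Hist1h4m showed a pattern of its own within WT. This H4 gene at chr13:21811746-21812147 (+ strand) had 34, 43, 59 and 49 counts in WT 1 to WT 4 and 0 in WT 5 and WT 6. In KO it had 2 counts in KO 3 and 0 in the other 5 libraries, and in KI it had 0 in all 6. With so few libraries above 3 counts it did not pass the edgeR filter. DESeq2, which has another filter, called it lower in KO (adjusted p = 0.0383) and in KI (adjusted p = 0.0125). Hist1h4n, another H4 gene at chr13:21831767-21832196 (- strand), has 85.6% of its 50-base stretches shared with another gene, beside 89.8% for Hist1h4m. These shares count any other gene, not this pair alone. The counts of Hist1h4n in WT 1 to WT 6 were 26, 24, 31, 50, 54 and 72, from 56 to 167 in KO and from 50 to 184 in KI. With the counts of both genes added, WT libraries had 3.48 ± 1.05 CPM, KO libraries 5.30 ± 1.91 and KI libraries 3.91 ± 2.05, and the ranges overlapped. An exact permutation test of the added level, two-sided, gave p = 0.0649 for KO against WT (1.52-fold) and p = 0.725 for KI against WT (1.12-fold), and for KI without the library labelled KI 4 p = 0.554 (0.901-fold). For KI against KO the exact permutation test gave p = 0.247 (0.738-fold), and p = 0.0455 (0.592-fold) without the library labelled KI 4. With Benjamini-Hochberg adjustment of the exact permutation p over the 3 comparisons, KO against WT was at 0.195 and KI against KO at 0.37. Without that library both were at 0.0973. The unadjusted p of KO against WT was the same without it, and its adjusted value moved only because the p of KI against KO fell. Hist1h4n alone had been 2.63-fold and 1.95-fold higher. Adding them was decided after the counts had been seen.

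**Figure D5:**
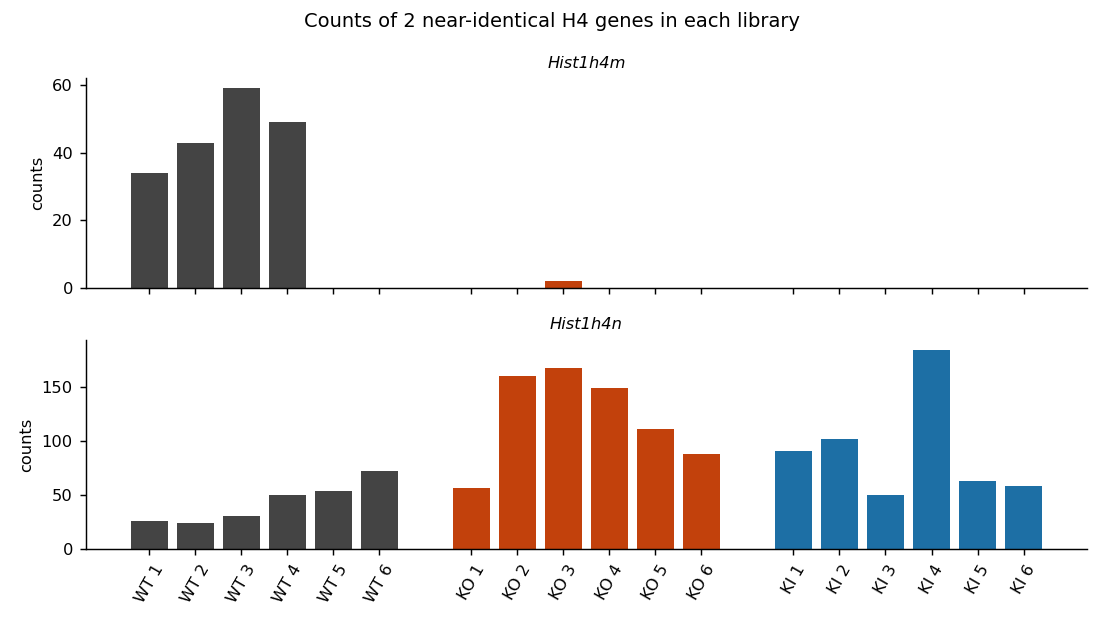
Counts of Hist1h4m and Hist1h4n in each library (WT grey, KO orange, KI blue). Hist1h4m has 34 to 59 counts in WT 1 to WT 4 and at most 2 in every other library, while Hist1h4n has counts in all 18.

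By class, 3 of 5 H1 genes tested rose in KO, 4 of 15 H2A, 4 of 14 H2B, 0 of 7 H3 and 4 of 11 H4, and 2 H2A genes and 1 H2B gene fell, where 16.4% of all genes rose and 13.5% fell. With the library labelled KI 4 left out of the fit, 4 of H1, 4 of H2A, 5 of H2B, 2 of H3 and 6 of H4 rose in KO, where 16.8% of all genes rose. In KI the numbers that rose were 1 of H1, 1 of H2A, 1 of H2B, 0 of H3 and 3 of H4 in edgeR, with 0 H3 genes at an unadjusted p under 0.05 and Hist2h3b alone of the H3 genes called by DESeq2, where 16.1% of all genes rose. Without the library labelled KI 4, 1 H1 and 1 H2A gene rose in KI, and 0 of H2B, H3 and H4 in edgeR, where 14.5% of all genes rose. These counts, and those that follow, are of few genes each and were not tested against all genes. The Hist1 cluster had 13 of its 42 tested genes higher in KO. Of the 5 tested genes of the Hist2 cluster Hist2h2ac rose and Hist2h2aa1 and Hist2h2aa2 fell. Of the 35 tested genes with a stem-loop in their model, 9 rose and 3 fell in KO, and of the 12 tested genes whose model ends at the stop codon or has none, 5 rose and 0 fell. Shared sequence bears on the counts of many members. Of the 10 tested genes with under 20% of their stretches shared, 4 rose and 0 fell in KO, with a median log2 fold change of 0.65, and of the 22 with 50% or more shared, 5 rose and 2 fell, with a median of 0.64. For those 22, the fragments that fit several genes were not counted, so their levels are uncertain.

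Upstream, a promoter (250 bases before the start of the gene and 50 after it, RefSeq on GRCm38.p6) could be matched for 60 of the 70 genes. The sequence CCAAT was found on either strand in 85.0% of them, beside 37.4% of all 32851 promoters of the table, TATAAA in 58.3%, beside 13.6%, and TATATAA, which can overlap TATAAA, in 16.7%, beside 3.2%. The windows of 30 bases around CCAAT in 4 members that rose in KO are shown on the strand of the gene, with the motif in capitals.
Hist1h1t: cctggggatgcaCCAATcacagcgcgccct
Hist1h1a: cgttagcattcaCCAATcacagcacagcac
Hist1h1c: gccgctggagcaCCAATcagcgcgcgcctg
Hist1h2aa: atcatcaatcagCCAATcaggtgttgagca
They lie at chr13:23695734-23695763, chr13:23763600-23763629, chr13:23738741-23738770 and chr13:23934359-23934388, with the motif 65, 56, 54 and 66 bases before the start of the gene. In Hist1h2ba, which also rose, the first CCAAT on the strand of the gene lies 195 bases before the start. Hist1h4h, Hist1h4k and Hist1h4n rose as well and have no CCAAT on either strand of the promoter. The match is of letters only and says nothing of binding in these cells.

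The genes that make and process histone mRNA were measured beside the members. The counts of these lists are of few genes each and stand beside 16.4% of all genes higher and 13.5% lower in KO, and 16.1% and 15.4% in KI. Slbp, the gene of the stem-loop binding protein, had means of 86.3 ± 12.5 CPM (WT), 83.3 ± 7.33 (KO) and 87.2 ± 6.67 (KI, SD, n = 6), with log2 fold changes of -0.05 ± 0.11 and 0.01 ± 0.11 (edgeR adjusted p = 0.8 and 0.949). Of the 10 genes of histone 3′ end processing, 2 rose and 0 fell in both KO and KI, namely Zfp473, which encodes a zinc finger protein of the U7 machinery (log2 fold changes of 0.80 and 0.78), and Casp8ap2, which encodes FLASH (0.49 and 0.46). Of the 8 genes of histone gene transcription, 4 rose and 1 fell in each comparison. Ccne1, the gene of cyclin E1, rose by a log2 fold change of 1.02 ± 0.15 in KO (edgeR adjusted p = 2.63e-05) and 0.82 ± 0.15 in KI, and its levels did not overlap between WT (4.14 to 5.58 CPM) and KO (7.47 to 11.4 CPM). Npat, the coactivator of histone genes at S phase, rose by 0.34 ± 0.11 in KO and 0.49 ± 0.11 in KI, Ccne2 by 0.91 ± 0.18 in KO, and Cdk2 by 0.51 ± 0.14 in KI. Of the 7 genes of histone mRNA decay, 0 were called in KO by edgeR or DESeq2, with 0 at an unadjusted p under 0.05, and Tut7 rose (0.32) and Eri1 fell (-0.29) in KI. Without the library labelled KI 4 the KI counts of end processing and transcription were the same, and 3 decay genes rose and 1 fell.

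Of the 9 histone chaperones and supply genes, Rbbp7 rose (0.56 in KO, 0.48 in KI) and Hat1, a histone acetyltransferase, fell (-0.84 and -0.76) in both comparisons, and Asf1b rose in KI (0.29). Of the 23 genes of S phase, 9 rose and 2 fell in KO and 7 rose and 2 fell in KI, with medians of 0.32 and 0.17. Without the library labelled KI 4, 6 rose and 2 fell in KI, with a median of 0.07, and of the chaperones and the replication-independent histones below 1 rose and 1 fell in each. Fen1, the flap endonuclease of DNA replication and repair, was the one gene of the list called past 1 log2 unit. Its level was 44.6 ± 3.75 CPM in WT libraries and 10.1 ± 2.71 in KO libraries, with a log2 fold change of -2.14 ± 0.18 (edgeR adjusted p = 8.53e-09), and its log2 fold change in KI was -2.53 ± 0.18. Of the 11 genes listed as replication-independent histones, most of which are made throughout the cell cycle from polyadenylated mRNA, 3 rose and 0 fell in KO (H1f0 0.59, H2afx 0.73 and H2afy 0.32). H2afx is an exception in the list, since it also gives a stem-loop mRNA without a poly(A) tail. In KI 2 rose (H2afy2 0.58 and H2afy 0.32) and 1 fell (H2afj -0.53), and the medians were 0.03 in KO and -0.10 in KI. Of 8 other RNAs tested that lack a poly(A) tail or are processed without one, 0 rose and 4 fell in KO, among them Rpph1 (-0.81), Rny3 (-1.0) and Vaultrc5 (-2.05). In KI 0 were called by edgeR or DESeq2, with 0 at an unadjusted p under 0.05. Rmrp has 2 entries in the annotation, and both were at 0 in every library. Fragments that fit both entries would not have been counted, so the 0 may not reflect its level.

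Markers of other cells and of stages moved with genotype, and their part in the changes of the members was not tested. All 8 Leydig cell markers rose in KO and in KI, with a summed level of 11.1, 12.7 and 24.5 CPM (lowest, median, highest) in WT, 35.7, 48.3 and 66.4 in KO and 15.2, 39.7 and 80.8 in KI, Cyp17a1 being the most abundant. All 10 markers of elongating spermatids fell in both, with sums of 19610 ± 2296 CPM (WT), 3726 ± 1024 (KO) and 3292 ± 471 (KI) and Prm2 the most abundant. Spermatocytes are the stage at which H1t, TH2A and TH2B are made. Of 12 spermatocyte markers 4 rose and 3 fell in KO and 3 rose and 2 fell in KI, and their sum was 1343 ± 112, 1298 ± 103 and 1313 ± 131 CPM, with median log2 fold changes of 0.08 and 0.00. With the library labelled KI 4 left out, 1 of them rose and 2 fell in KI. Of 11 spermatogonium markers tested, 4 rose in KO and 2 in KI and 0 fell, with median log2 fold changes of 0.55 in KO, 0.26 in KI and -0.35 between KI and KO, beside 0.60, 0.25 and -0.38 for the members. Without the library labelled KI 4, 5 of these markers rose in KO and 1 in KI, and 0 fell. Their medians in KI and between KI and KO were then 0.00 and -0.58, beside -0.05 and -0.69 for the members. The S phase genes had medians of 0.32 in KO, 0.17 in KI and -0.09 between KI and KO. Without the library labelled KI 4 those in KI and between KI and KO were 0.07 and -0.20. Among the spermatogonium markers that rose in KO with all libraries were Stra8, a gene of the entry into meiosis (1.23), Ret (0.97) and Id4 (0.35). The sum of the list was 335 ± 54.4 CPM (WT), 380 ± 103 (KO) and 337 ± 103 (KI), most of it from Dmrtb1, which was not called (0.11 in KO). Without Dmrtb1, which was left out after its values had been seen, the sum was 57.3 ± 4.99 CPM (WT), 80.6 ± 12.97 (KO) and 71.7 ± 15.9 (KI). Its highest libraries were then the one labelled KI 4 (101 CPM), KO 2 (96.8 CPM) and KO 3 (91.3 CPM), which were also the 3 highest for the members. With Dmrtb1 kept in the sum this order did not hold. The full list was at 304 CPM in the library labelled KI 4, 295 in KO 2 and 227 in KO 3, and KO 1 was highest at 515. Of 9 Sertoli cell markers tested, 3 fell in KO and 2 in KI. Of 7 macrophage markers, 2 rose and 1 fell in KO and 3 rose and 1 fell in KI, and of 8 endothelial and peritubular markers, 2 rose and 1 fell in each. With the library labelled KI 4 left out, 1 macrophage marker rose and 1 fell in KI, and 3 Sertoli cell markers fell. The 10 round spermatid markers, present in all libraries with Tssk1 the most abundant, summed to 1087 ± 186 CPM (WT), 953 ± 222 (KO) and 829 ± 115 (KI), with 1 lower in KO and 5 lower in KI.

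The share of counts on the 2 mitochondrial rRNA genes was 17.4% in KO 2, 21.3% in KO 3 and 17.5% in the library labelled KI 4, the 3 libraries with the highest summed level of the members (1059, 959 and 1066 CPM). It was 15.3% in KI 3 and 15.5% in KI 5, which had 420 and 366 CPM of the members, and from 7.07% to 12.4% in the other libraries. The part of this share in the level of the members was not tested. With mitochondrial genes left out of the library totals, the same numbers of members were called, 15 higher and 3 lower in KO and 6 higher and 3 lower in KI. Over all genes 15.6% were then higher and 14.1% lower in KO, and 16.7% and 15.5% in KI.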

How the data were processed

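Before deposit the authors used cutadapt 3.4 for trimming, STAR 2.7.8a for alignment to GRCm38 and featureCounts 2.0.1 for stranded fragment counts on GENCODE M18 genes, and the deposited values are these raw counts. Fragments that fit several genes were not counted, and marked duplicates were kept. Of the 54232 genes 54165 were named from GENCODE M21, and 0 columns were left without a library. The deposited gene length, in bases, gave levels per kilobase. Counts were tested in R 4.3.3 with edgeR 4.0.16 (filterByExpr, TMM, 1 quasi-likelihood model of genotype over 18 libraries, glmQLFTest, and glmTreat at 1 log2 unit), with Benjamini-Hochberg adjustment over 21058 genes and a threshold of 0.1. The robust form of the fit and the interval null of glmTreat were run at the outset and then replaced by the plain fit and the worst-case null, to match an earlier processing of these data, after results of both had been seen. They are given as an alternative. The method was run on simulated counts, where the share of false calls was above the threshold, so that the adjusted p is approximate. SE is that of the log2 fold change. The floor was set at 3 counts. Floors cover counting error only, as reads amplified by PCR are not independent molecules.

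The members, gene lists and marker lists were chosen with earlier results of these data known. Members named in the text are the testis members, the 8 highest per kilobase, the highest of each class, and the 4 that rose and 4 that fell most among those called in each comparison. From each gene list up to 3 called genes are named, and Slbp in any case. Others are named to complete a count and were chosen after their values were seen, as were Hist1h1c, Hist2h2ac, Hist1h4c and Hist1h4m. Alternatives were DESeq2 1.42.0, its size factors, other filters, fewer genotypes, a replicate block, a threshold of 0.05, close pairs summed and each library left out. Sequences come from GENCODE M21 transcripts and RefSeq promoters. Figures were drawn with matplotlib 3.10.9.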

Additional observations from a re-analysis of the deposited data

Results flagged for a closer look

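Among the 15 members named by rule and the summed level, in 3 genotypes (48 groups of 6 libraries), 5 groups had 1 library set far from the rest, and in all 5 it was the library labelled KI 4. By chance about 1 in 20 such groups would be marked if they were independent. The 5 marked groups share the same library, so they are not separate events and the rate cannot be set against their number. This library was the highest of the KI libraries for Hist1h2aa (48.55 CPM), Hist1h1a (119.5 CPM), Hist1h2ak (19.3 CPM), Hist1h2bg (1.439 CPM) and Hist1h4n (7.789 CPM). The same library had Ddx25 within the KO range, and the part of this in the values was not tested. No library of WT or KO was marked for any of these members.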

How the results depend on the processing

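In KO against WT, where 15 members rose, 9 of 52 rose at an adjusted p of 0.05 (17.3%, beside 12.7% of all genes), 23 of 52 with only the genotypes compared (44.2%, beside 18.4%), 6 of 60 with the close pairs summed and the library labelled KI 4 left out (10%, beside 7.94%), and 9 of 69 with the robust fit, interval null and no filter (13%, beside 6.03%). Leaving out 1 library gave 7 (13.5%, beside 13.7%) to 26 (49.1%, beside 16.3%). In KI against WT, where 6 rose and 3 fell, leaving out 1 library gave 2 to 7 (3.85% to 13.2%, beside 13.7% to 18% of all genes) and 2 to 6 (3.77% to 11.5%, beside 12.3% to 16.2%), the extremes of 2 and 6 being without the library labelled KI 4. With KO 2 and that library left out it was 2 and 6 in KI (3.85% and 11.5%, beside 14.4% and 15.9% of all genes). In KO it was then 13 and 3 (25.0% and 5.77%, beside 14.3% and 12.4%). With close pairs summed it was 0 and 1 in KI (0% and 1.67%, beside 5.32% and 6.87%). Without a filter 1 member, Hist1h4m, fell past 1 log2 unit in KO and 1 in KI, and it was 0 in both with the robust fit and interval null. The robust fit with the usual filter called the same 15, 3, 6 and 3. Hist1h1t, Hist1h2aa, Hist1h2ba and Hist1h2bp kept their direction and call in KO under all 30 alternatives run. Of the 15 members named by rule, 38 of 448 values lost their call in KO and 11 gained one, 30 of 447 lost it in KI, and 0 calls changed between KI and KO. No value called in either fit changed sign, while values that were not called did so 2 times in KO (1 member), 11 times in KI (4 members) and 4 times between KI and KO (2 members). Without the testis members the summed level was 258 CPM (WT), 347 (KO) and 271 (KI), and over the 4 members with no shared stretch 157, 364 and 288, since fewer genes enter these sums.

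Same-numbered libraries did not deviate together, with correlations from -0.53 to 0.57, so the numbers pair no samples. With the replicate block 17 members rose and 3 fell in KO (32.7% and 5.77%, beside 16% and 13.8% of all genes), 6 rose and 3 fell in KI (11.5% and 5.77%, beside 15.2% and 15.8%), and 0 were called between KI and KO. The cause of these changes in counts was not tested. The alternatives without KO 2 and the library labelled KI 4 together, those with the robust fit, and the added counts of Hist1h4m and Hist1h4n were chosen after seeing the data. For Hist1h2ao, Hist1h2bq and Hist1h2br, with 3 or fewer counts in every library and most of their sequence shared with other genes, a difference was not detectable from these counts.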
